A study of Mus musculus with 16 samples.

Results

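A set of 40 genes of mitosis and cytokinesis was followed in mouse lung neuroendocrine cells with and without an introduced Wnt5a, a secreted Wnt ligand. The genes were chosen by name, as the cyclins and Cdk1, the spindle checkpoint, the spindle kinases, the chromosomal passenger complex, the kinetochore, the spindle motors and the central spindle, and they are 40 of the 17655 genes listed in every sample. The cells, termed preSC, are precancerous cells of small cell lung cancer: Chga-positive lung neuroendocrine cells that are Rb1 null, Trp53 null and Rbl2 heterozygous null, a genotype that both groups carry. The empty group was infected with a lentiviral vector without insert, and the Wnt5a group with a lentivirus carrying Wnt5a. Cells of both groups received 1 µg/mL doxycycline for 48 hours before RNA was taken, so no group without doxycycline was compared. Whether the lines were clones, and whether samples came from separate cultures, is not given in the sources used here, and p-values measure only the spread between these samples, which may be technical.

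Mitosis begins when cyclin A and cyclin B activate the kinase Cdk1, and ends when the anaphase-promoting complex with its activator Cdc20 destroys the cyclins. In between, the kinetochore attaches chromosomes to the spindle, the checkpoint delays anaphase until all are attached, and the passenger complex moves from centromeres to the central spindle, where cytokinesis is organized and the GTPase RhoA drives the contractile ring. Most of these genes are controlled by the DREAM and MuvB complexes, and are transcribed in late G2 under MuvB with B-Myb and FoxM1. This control acts through promoter elements known as the cell cycle homology region (CHR) and the CCAAT box bound by NF-Y. Rb1 and Rbl2 encode pocket proteins that repress cell cycle genes in resting cells.

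The promoters are shown first because this shared control is known for most of the genes. Windows from 250 bases before to 50 bases after the start were taken from RefSeq (GRCm38.p6); 34 of the 40 genes matched by symbol, with 37 windows, and Ccna2, Kif20a, Tpx2, Spc24, Incenp and Aurkb did not. The stretches below run 5′ to 3′ along the gene from 150 bases before to 30 bases after the start, and the capitals mark matches, on either strand, to the NF-Y box CCAAT and to both forms of the CHR, the first of which reads TTTGAA and the second TTCGAA. Kif11 and Kif20b are shown because they passed the test described below, and Birc5 and Top2a because they had the next largest differences among genes with a window.
Kif11, chr19:37376232-37376411, plus strand: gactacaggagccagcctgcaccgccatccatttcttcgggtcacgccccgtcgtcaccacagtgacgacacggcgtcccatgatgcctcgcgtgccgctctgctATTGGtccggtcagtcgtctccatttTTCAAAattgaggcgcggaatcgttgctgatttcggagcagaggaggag
Kif20b, chr19:34922208-34922387, plus strand: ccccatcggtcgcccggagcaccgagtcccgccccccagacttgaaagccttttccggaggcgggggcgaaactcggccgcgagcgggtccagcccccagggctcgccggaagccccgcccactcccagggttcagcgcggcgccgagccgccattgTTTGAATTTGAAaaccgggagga
Birc5, chr11:117849087-117849266, plus strand: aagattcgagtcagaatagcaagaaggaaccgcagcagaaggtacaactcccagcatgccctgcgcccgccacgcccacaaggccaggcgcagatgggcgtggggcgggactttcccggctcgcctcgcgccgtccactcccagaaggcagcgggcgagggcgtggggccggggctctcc
Top2a, chr11:99024160-99024339, minus strand: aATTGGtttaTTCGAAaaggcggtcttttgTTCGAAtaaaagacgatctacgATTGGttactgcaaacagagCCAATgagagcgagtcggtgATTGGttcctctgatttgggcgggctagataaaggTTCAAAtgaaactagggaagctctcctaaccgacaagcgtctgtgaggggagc
The Kif11 stretch held 1 CCAAT box and 1 CHR, and the Kif20b stretch held 2 adjoining CHR matches just after the start and 0 CCAAT boxes. Top2a held 4 CCAAT boxes and 3 CHR matches, whereas the Birc5 stretch held 0 of either.

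CCAAT, searched on both strands, was present in 28 of the 37 windows (75.7%), against 37.4% of all 32851 promoter windows of the same length and 38.0% of the 12441 windows of tested genes. A CHR of either form, also on both strands, was present in 31 of 37 (83.8%), against 19.2% and 13.4%. TTTGAA alone was found in 30 windows (81.1%, against 17.9% of all) and TTCGAA in 3 (8.11%, against 1.56%). Both elements occurred together in 26 windows (70.3%), against 7.52% of all windows and 5.62% of those of tested genes. The 4 E2F sequences searched on both strands read TTTGGCGC in the first case, TTTCGCGC in the next, TTTCCCGC in another and TTTGCCGC in the last. They were found in 2 windows (5.41%, against 2.26% of all and 3.95% of those of tested genes), those of Cdk1 and Kif15. A window of each of Birc5, Mad2l1, Nuf2 and Nusap1 held neither a CCAAT box nor a CHR.

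The matches were also placed differently from those in other promoters. The median CHR match of the mitosis genes lay 5 bases before the start (-5, 43 matches), against a median of -125 for 7260 matches in all windows. The median CCAAT box lay at -63.5 (58 matches), against -92 for 17707. Matches were counted per window, so a site shared by overlapping windows of Bub3, Ect2 or Prc1 was counted in each window. These are letter matches in a fixed window, not measured binding sites.

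**Figure D1:**
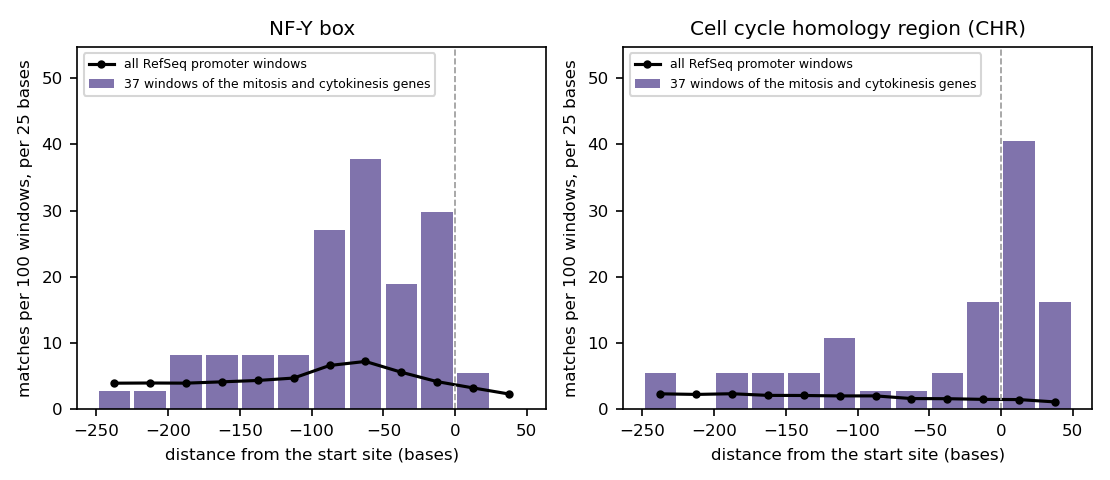
Position of CCAAT boxes (left) and CHR matches (right) in promoter windows, as matches per 100 windows in bins of 25 bases against distance from the start site in bases, for the mitosis genes and for all windows. CCAAT boxes of the mitosis genes are densest between 75 and 50 bases before the start, and CHR matches in the first 25 bases after it.

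Expression values are normalised read counts as the authors deposited them. Samples 1 to 4 of a group differed from each other by about as much as counting noise (index of dispersion 0.987 to 1.05 in the 24 pairs within such sets), as did samples 5 to 8, whereas pairs across the sets had an index of 5.23 to 5.44. Each set of 4 was therefore averaged and counted as 1 sample, called library A (samples 1 to 4) and library B (samples 5 to 8), which leaves n = 2 per group. Libraries held 30220749 to 35315408 recovered reads. The neuroendocrine markers Chga, Syp, Insm1, Ncam1, Uchl1, Calca and Chgb were abundant, with Chga at 4369.6 and 3716 in the empty libraries, while of the markers of fibroblasts, leukocytes, endothelium and other lung epithelium only the fibroblast gene Dcn exceeded a value of 25 in any library. Dcn read 597 and 340.2 in empty cells, against 241 and 246 with Wnt5a, and its part in the results below was not tested. Wnt5a itself read 144 and 99.8 in empty A and B, against 1049 and 1509 in its own group (log2 difference 3.38, SE 0.22; limma with Benjamini-Hochberg adjustment, adjusted p = 0.0010). Rb1 transcript read 3223 ± 8.73 and 3193 ± 34.0 (SD, n = 2 each), and Trp53 67.4 ± 3.71 and 90.9 ± 9.04; a count over a whole gene does not check a deletion of part of it.

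All 40 genes were expressed well above the floor and all passed the minimum mean value of 10. Per kilobase of the longest GENCODE transcript, the only scale on which genes are compared here, Top2a was highest in the empty libraries (1672 normalised counts per kb), followed by Cdc20 (1368) and Ccnb1 (968). Kif20b (69.5), Kif14 (84.3) and Kif15 (96.0) were lowest. The median of the 40 genes was 389 per kb, against 95.3 for 12295 tested genes with a length, and 38 of the 40 exceeded that value. The empty preSC thus already held high levels of mitotic transcripts. In bulk RNA, more dividing cells and more RNA per dividing cell cannot be told apart.

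**Figure D2:**
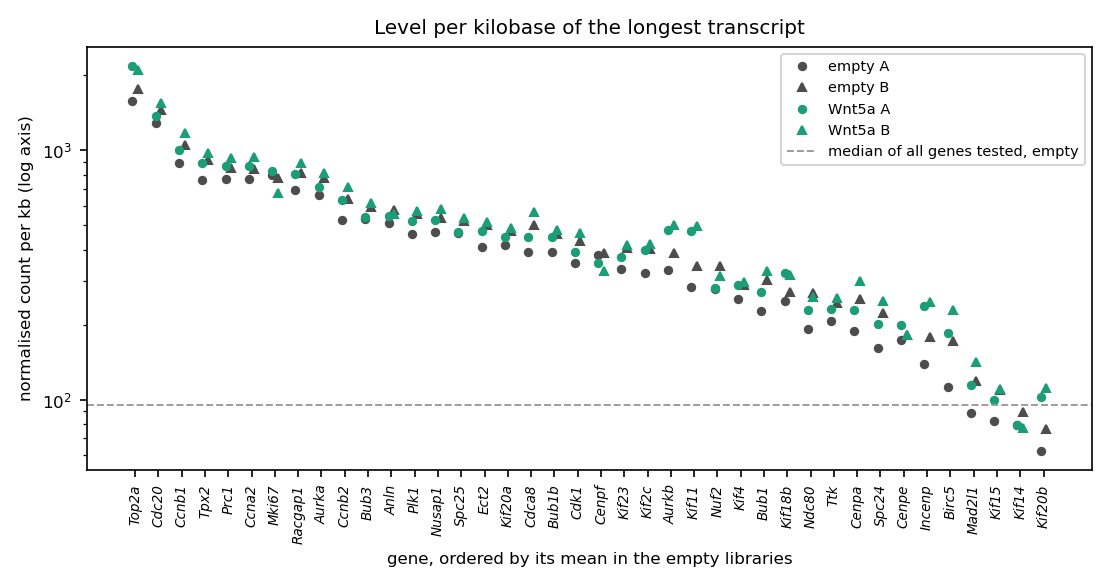
Normalised count per kilobase of the longest transcript (log axis) for the 40 genes, ordered by their mean in the empty libraries, with one symbol for each of the 4 libraries and a dashed line at the median of all genes tested. The genes span from 69.5 (Kif20b) to 1672 (Top2a) in the empty libraries, and the points of most genes lie close together against that span.

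Between the groups, most mitosis genes stood slightly higher in the Wnt5a libraries, and few differed by more than the spread between libraries. The log2 difference (Wnt5a minus empty, on log2 of value + 1) was positive for 36 of the 40 genes (90%, against 50.7% of the 12357 genes tested), with a median of 0.15 against 0.0026. Only 2 genes, Kif11 and Kif20b, passed the limma threshold of 0.05 after Benjamini-Hochberg adjustment over all genes tested; both rose. By the same test 2.06% of all genes passed, 1.38% higher and 0.672% lower. None of the 40 passed as lower, and by unadjusted p under 0.05 the counts were 7 higher (Kif11, Kif20b, Incenp, Aurkb, Top2a, Kif18b and Birc5) and 0 lower, against 8.63% and 7.45% of all genes. edgeR's quasi-likelihood test on the recovered reads called 1 (Kif11; 1.99% of all genes), and DESeq2 called 6 (Kif11, Kif20b, Incenp, Aurkb, Top2a and Birc5; 4.35% of all genes), all higher. Without 1 library, limma called 0 of the 40 (Wnt5a B left out; 1.12% of all genes), 1 (Wnt5a A; 1.34%), 3 (empty A; 3.99%) or 10 (empty B; 8.89%). Both Wnt5a libraries lay above both empty libraries for 10 genes (25%), which is close to the 22.7% of all genes, and below them for 1 (2.5%), against 21.5%. The standard errors of the 40 differences ran from 0.08 to 0.20.

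**Figure D3:**
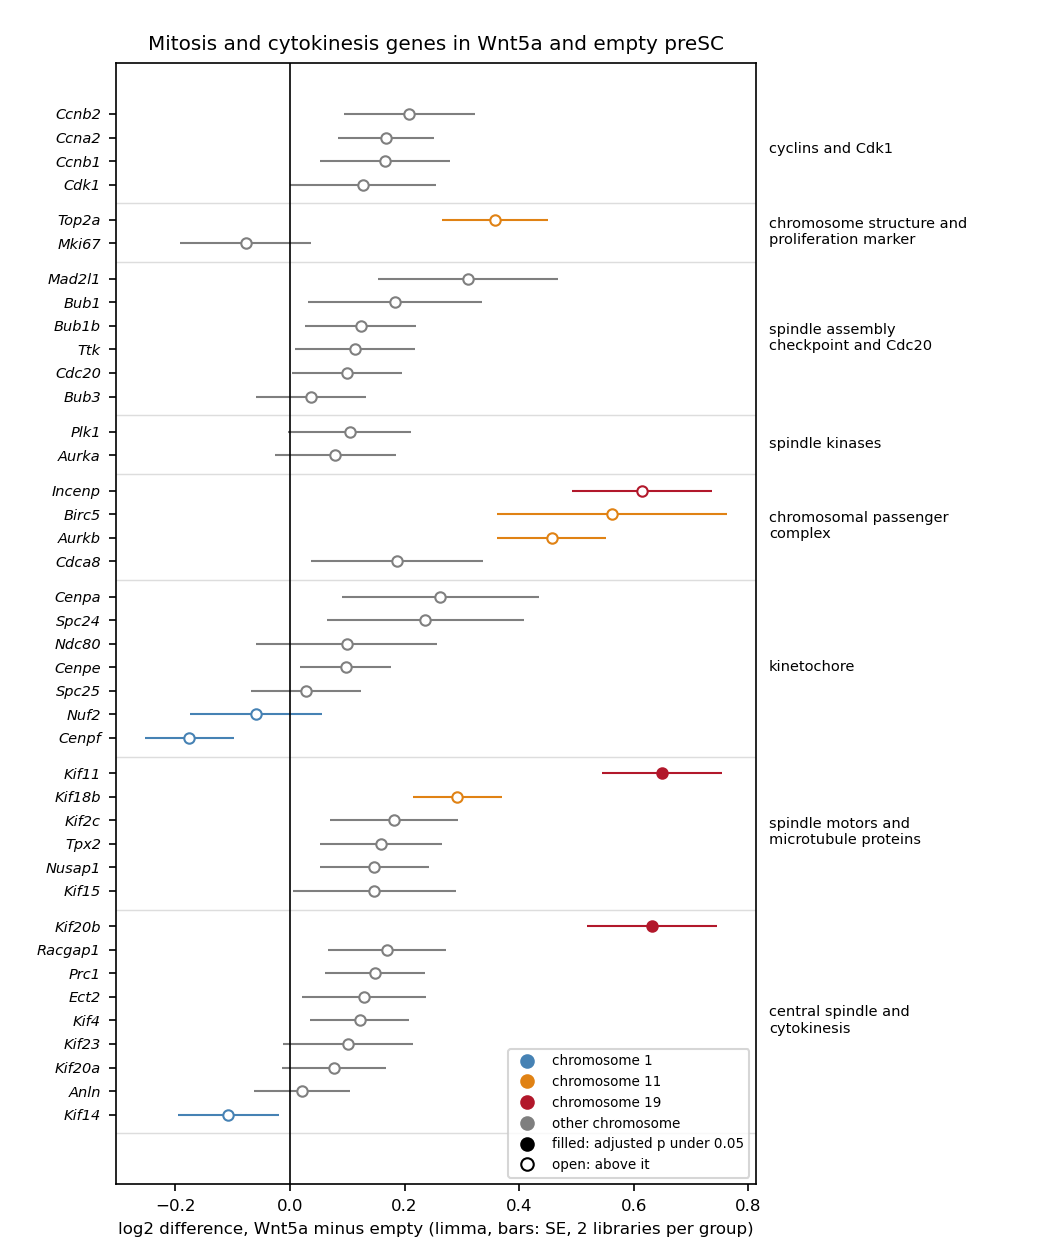
Log2 difference (Wnt5a minus empty; points) with its standard error (bars, 2 libraries per group) for each of the 40 genes, grouped by role, coloured by chromosome and filled where the adjusted p is under 0.05. The largest differences are those of Kif11 (0.65), Kif20b (0.63) and Incenp (0.61), and the lowest is that of Cenpf (-0.18).

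The cyclins and Cdk1, which start mitosis, had positive differences in 4 of 4 genes (median 0.17), and none passed. Ccnb1, the B-type cyclin, read 2211 and 2609 in empty libraries A and B and 2488 and 2917 in Wnt5a libraries A and B (samples: lowest 2192, median 2392, highest 2679.9 in empty, and 2449.9, 2709.6 and 2957 in Wnt5a). Its groups overlapped, since the empty B library exceeded the Wnt5a A library. This left a log2 difference of 0.17 (SE 0.11; limma with Benjamini-Hochberg adjustment, adjusted p = 0.57). Cdk1, its kinase partner, had 1545 and 1898 in empty and 1711 and 2046 in Wnt5a (samples 1491 to 1948, median 1697, and 1679 to 2062, median 1896). The 2 groups again interleaved, with the B library above the A library in each, and the difference was 0.13 (SE 0.13; adjusted p = 0.72). Ccna2 (0.17) was the only gene of the 4 whose libraries did not overlap, at 2279 and 2491 against 2574 and 2783, and Ccnb2 stood at 0.21.

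Mki67, the proliferation marker that coats mitotic chromosomes, did not move with the majority. It read 8035 and 7828 in empty and 8349.5 and 6768 in Wnt5a (samples 7753 to 8107, median 7939, and 6711 to 8530.0, median 7513). The Wnt5a A library was the highest of the 4 and the Wnt5a B library the lowest, so the difference between libraries of 1 group exceeded that between groups. The log2 difference was -0.08 (SE 0.11; limma with Benjamini-Hochberg adjustment, adjusted p = 0.83), 0.06 for the A pair of libraries and -0.21 for the B pair. Top2a, the topoisomerase that untangles sister chromatids, read 8245 and 9212 in empty and 11358 and 10974 in Wnt5a (samples 8117 to 9409.8, median 8722, and 10926 to 11429.6, median 11150.3). All 8 Wnt5a samples lay above all 8 empty samples. Such separation, with Wnt5a higher, held for 6 of the 40 genes and for 797 of the 12357 tested. Samples of a library differed by about counting noise, so here and below it rests on 2 libraries per group. The Top2a difference of 0.36 (SE 0.09) did not pass in limma (Benjamini-Hochberg adjusted p = 0.13) or edgeR (0.12) and passed in DESeq2 (0.014). With chromosome medians removed, as described below, it was 0.19 (limma adjusted p = 0.54).

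The spindle assembly checkpoint genes Bub1, Bub1b, Bub3, Mad2l1 and Ttk, with the activator Cdc20 that they restrain, had 6 of 6 positive differences (median 0.12, range 0.04 for Bub3 to 0.31 for Mad2l1). None passed, and for all 6 the libraries of the groups overlapped, as they did for 6892 of the 12357 genes tested. Cdc20 read 2304 and 2602 in empty and 2472 and 2786 in Wnt5a (samples 2249.8 to 2675, median 2419.9, and 2442 to 2833, median 2618). Its B library was higher than its A library in both groups by more than the groups differed. Its log2 difference was 0.10 (SE 0.10; limma with Benjamini-Hochberg adjustment, adjusted p = 0.72). Mad2l1, which binds and holds Cdc20, had the largest difference of the role, from 671 and 897 to 867 and 1067 (adjusted p = 0.41).

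Of the spindle kinases, Plk1, which drives centrosome maturation and mitotic entry, read 1013 and 1223 in empty and 1143 and 1252 in Wnt5a (samples 957 to 1248, median 1129.8, and 1075 to 1279, median 1229). The empty B library lay above the Wnt5a A library, and the groups overlapped. Plk1 stood at 0.10 on the log2 scale (SE 0.11; limma with Benjamini-Hochberg adjustment, adjusted p = 0.74). Aurka, the kinase of the spindle poles, stood at 0.08 (adjusted p = 0.80).

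The chromosomal passenger complex had the largest median of the roles, 0.51 over its 4 genes, although none passed in limma. With chromosome medians removed, as described below, that median was 0.28. Aurkb, its kinase, read 647 and 753 in empty and 933 and 984 in Wnt5a (samples 638 to 784, median 691, and 909 to 1018, median 952). Every Wnt5a sample exceeded every empty sample. Aurkb stood at 0.46 on the log2 scale (SE 0.09; limma with Benjamini-Hochberg adjustment, adjusted p = 0.072), and DESeq2 gave an adjusted p of 0.0058. Incenp, the scaffold that activates Aurkb, read 481 and 618 in empty and 822 and 849 in Wnt5a (samples 462 to 678, median 534, and 802 to 879.6, median 824). Here too the samples of the groups were fully separated, and the difference was 0.61 (SE 0.12; limma adjusted p = 0.065, DESeq2 0.00043). Birc5, also known as survivin, the subunit that brings the complex to chromatin, read 376 and 573 in empty and 615 and 765 in Wnt5a (samples 359 to 609, median 471, and 603 to 791, median 678). Its libraries were separated but its samples were not, because the highest empty sample exceeded the lowest Wnt5a sample. The difference was 0.56, with the largest standard error of the 40 genes (0.20; limma adjusted p = 0.23, edgeR 0.25, DESeq2 0.047). Cdca8, or borealin, at 1318 and 1679 against 1503 and 1907, had a difference of 0.19 (limma adjusted p = 0.64) and overlapping libraries. Aurkb and Birc5 lie on chromosome 11 and Incenp on chromosome 19, whereas Cdca8 lies on chromosome 4. With the chromosome medians removed the differences were 0.29 for Aurkb, 0.39 for Birc5, 0.27 for Incenp and 0.20 for Cdca8.

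The kinetochore genes were mixed, with 5 of 7 positive (median 0.10) and none passing. Cenpf, a large outer kinetochore and nuclear matrix protein, read 4255 and 4323 in empty and 3945 and 3655 in Wnt5a (samples 4174 to 4415, median 4300.1, and 3607 to 4029, median 3802). It was the 1 gene of the 40 whose Wnt5a samples all lay below its empty samples, against 735 of the 12357 genes tested. The log2 difference was -0.18 (SE 0.08; limma with Benjamini-Hochberg adjustment, adjusted p = 0.34). Nuf2, a subunit of the Ndc80 complex that grips microtubules, read 1086 and 1337 in empty and 1095 and 1221 in Wnt5a (samples 1042 to 1408, median 1202, and 1085 to 1269, median 1144). Both Wnt5a libraries fell between the 2 empty libraries, and the difference was -0.06 (SE 0.12; adjusted p = 0.88). Its partners in the complex stood at 0.10 (Ndc80), 0.24 (Spc24) and 0.03 (Spc25), the centromeric histone Cenpa at 0.26 and the kinesin Cenpe at 0.10, with libraries that overlapped for each.

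Among the spindle motors and microtubule proteins, 6 of 6 differences were positive (median 0.17), and Kif11 rose. Kif11 (Eg5) is the kinesin that pushes the spindle poles apart and the target of spindle poisons of the monastrol type. It read 1359.7 and 1654 in empty and 2299 and 2406 in Wnt5a, or 1507 ± 208 and 2353 ± 75.2 (SD, n = 2 each; samples 1297 to 1681, median 1505, and 2281 to 2449, median 2358). The lowest Wnt5a sample exceeded the highest empty sample by a wide margin, and the 2 Wnt5a libraries lay closer together than the 2 empty ones. The log2 difference was 0.65 (SE 0.10), a 1.57-fold rise (limma with Benjamini-Hochberg adjustment, adjusted p = 0.034; edgeR 0.037; DESeq2 4.2e-06). The A pair of libraries gave 0.76 and the B pair 0.54. With chromosome medians removed, as described below, Kif11 stood at 0.31 and did not pass (limma adjusted p = 0.30). Nor did it pass in limma without the minimum mean value (adjusted p = 0.12), with a minimum of 50 (0.056) or without trend (0.098). Without the Wnt5a B library the adjusted p was 0.085, and without each other library 5.3e-05 to 0.045. Kif18b, a microtubule depolymerase, read 830.0 and 903 against 1072 and 1048 with separated samples (0.29, adjusted p = 0.13). With chromosome medians removed Kif18b stood at 0.12 (limma adjusted p = 0.64). The other genes of the role stood at 0.15 (Kif15), 0.18 (Kif2c), 0.16 (Tpx2) and 0.15 (Nusap1).

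The central spindle and cytokinesis genes had 8 of 9 positive differences (median 0.12), and Kif20b rose. Kif20b (Mphosph1), a kinesin of the midbody that acts in abscission, read 348 and 426 in empty and 573 and 623 in Wnt5a, or 387 ± 55.0 and 598 ± 35.5 (SD, n = 2 each; samples 331 to 449, median 395, and 556 to 646, median 588). All Wnt5a samples were above all empty samples. The log2 difference was 0.63 (SE 0.11), a 1.55-fold rise at the edge of the threshold (limma with Benjamini-Hochberg adjustment, adjusted p = 0.049; edgeR 0.051; DESeq2 0.00023). With chromosome medians removed Kif20b stood at 0.29 and did not pass (limma adjusted p = 0.39). Nor did it pass in limma with a pseudocount of 0.1 (adjusted p = 0.051) or without the minimum mean value (0.14). The limma adjusted p was 0.075 with a minimum of 50, 0.058 with median centring and 0.11 without trend. It passed in limma with a pseudocount of 10 (0.048) and with quantile normalization (0.049). The call was lost without the Wnt5a A library (adjusted p = 0.061) and without the Wnt5a B library (0.16). Kif14, the kinesin that recruits citron kinase to the midbody, had the second most negative difference of the set at 705 and 802 in empty and 707 and 689 in Wnt5a (samples 692 to 832, median 742, and 651 to 713, median 703). The A libraries of the groups were at one level and only the empty B library stood above them, for a difference of -0.11 (SE 0.09; adjusted p = 0.65).

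The centralspindlin and RhoA-activating genes, which set the position of the contractile ring, differed by less than the 2 empty libraries did from each other. Kif23, the motor subunit of centralspindlin, read 1136 and 1383 in empty and 1269.7 and 1424 in Wnt5a (samples 1106 to 1443, median 1254, and 1237 to 1435, median 1365; difference 0.10, SE 0.11, limma with Benjamini-Hochberg adjustment, adjusted p = 0.76). Racgap1, its partner subunit, read 3106 and 3640.4 against 3585 and 3990.1 (samples 3036 to 3746, median 3379.6, and 3518 to 4088, median 3732; difference 0.17, SE 0.10, adjusted p = 0.52). For both genes the empty B library exceeded the Wnt5a A library. Ect2, the exchange factor that loads RhoA with GTP, read 1681 and 2046 in empty and 1943 and 2115 in Wnt5a (samples 1646 to 2139.8, median 1851, and 1929 to 2166, median 2026; difference 0.13, SE 0.11, adjusted p = 0.66). Anln, the ring scaffold anillin that binds RhoA, read 2353 and 2649 against 2508 and 2556 (samples 2316 to 2685, median 2517, and 2445 to 2607, median 2543). Its Wnt5a libraries fell between the empty ones, with a difference of 0.02 (SE 0.08; adjusted p = 0.95). Prc1, the bundler of the central spindle, stood at 0.15, the kinesins Kif4 and Kif20a at 0.12 and 0.08.

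Rhoa, which encodes the GTPase on which Ect2, Racgap1 and Anln act, was almost without reads in the empty group. Its empty libraries read 4.69 (A, 17 reads) and 0.761 (B, 3 reads), and its Wnt5a libraries 513 and 507 (samples 0 to 5.52, median 2.12, and 488 to 535, median 509.9). The log2 difference of 7.34 (SE 0.48; limma with Benjamini-Hochberg adjustment, adjusted p = 0.0010) depends on the pseudocount, from 5.37 with 10 to 7.97 with 0.1, since 3 reads set 1 of the values. The paralogs Rhob and Rhoc stood at 0.04 and -0.24 and did not pass. The empty preSC, with next to no reads assigned to Rhoa, thus held Ect2, Anln, Kif23 and Racgap1 at levels that lay 0.02 to 0.17 on the log2 scale below those of the Wnt5a cells, none of which passed. Whether Rhoa reads were lost in counting was not tested.

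The size of the differences went with the chromosome on which a gene lies. Genes outside the lists had a median difference of 0.36 if they lay on chromosome 19 (n = 407), of 0.17 if on chromosome 11 (n = 1004) and of -0.17 if on chromosome 1 (n = 677), with medians between -0.02 and 0.02 on every other chromosome. The 3 mitosis genes on chromosome 19, Kif11, Kif20b and Incenp, differed by 0.61 to 0.65. The 4 on chromosome 11, Birc5, Aurkb, Top2a and Kif18b, differed by 0.29 to 0.56, and the 3 on chromosome 1, Cenpf, Kif14 and Nuf2, by -0.18 to -0.06. Those 7 positive genes are the same 7 that had an unadjusted p under 0.05, and of the 4 negative genes only Mki67 (chromosome 7) lay elsewhere. Of the 30 genes on other chromosomes, 29 were positive with a median of 0.13, 0 passed in limma, edgeR or DESeq2, and 0 had an unadjusted limma p under 0.05.

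When each chromosome's median was subtracted in every library, 0 of the 40 genes passed in limma (lowest Benjamini-Hochberg adjusted p 0.30), against 1.58% of all genes; by unadjusted p under 0.05 there were 3 higher (Aurkb, Kif11 and Kif20b) and 0 lower, against 593 and 820 of all 12335 genes. Kif11 then stood at 0.31 (adjusted p = 0.30) and Kif20b at 0.29 (adjusted p = 0.39). The differences of Cenpf, Nuf2 and Kif14 became 0.00, 0.12 and 0.07. Without these medians 39 of 40 genes were positive (97.5%, against 51.0% of all genes), with a median of 0.14 and a range from -0.08 (Mki67) to 0.39 (Birc5). What lies behind the chromosome medians was not tested.

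**Figure D4:**
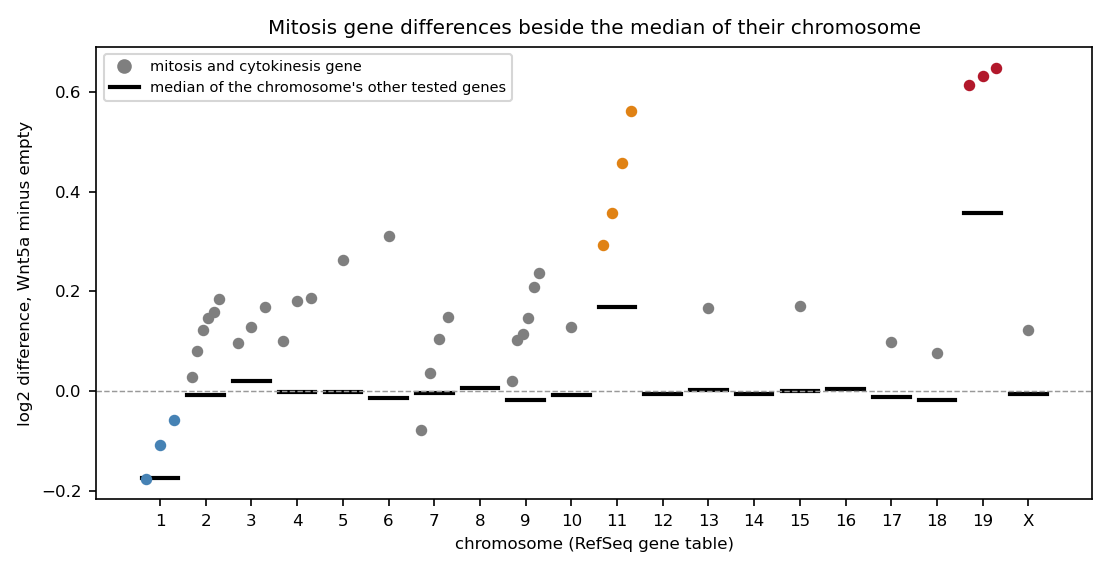
Log2 difference (Wnt5a minus empty) of each mitosis gene (points) against its chromosome, with the median difference of the other tested genes of that chromosome (horizontal marks). The 3 genes on chromosome 19 lie highest and Cenpf, on chromosome 1, lowest, and the medians of chromosomes 19, 11 and 1 (0.36, 0.17 and -0.17) stand apart from the others.

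The 40 genes also moved together between the 2 libraries of a group. Library B exceeded library A in both groups for 34 of 40 genes (85.0%, against 35.3% of all genes), by a median log2 difference of 0.24 in empty and 0.14 in Wnt5a. The difference between groups was smaller than that between the 2 empty libraries for 30 of 40 genes (75%, against 55.6% of all genes). Taken within like-numbered libraries, Wnt5a exceeded empty for 39 genes between the A libraries (median 0.19) and for 33 between the B libraries (median 0.10), and in both for 33 (82.5%, against 36.5% of all genes). The median difference over the set was thus of the order of the shift between libraries of a single group, and it varied with the library left out, from 0.01 without empty A to 0.27 without empty B.

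**Figure D5:**
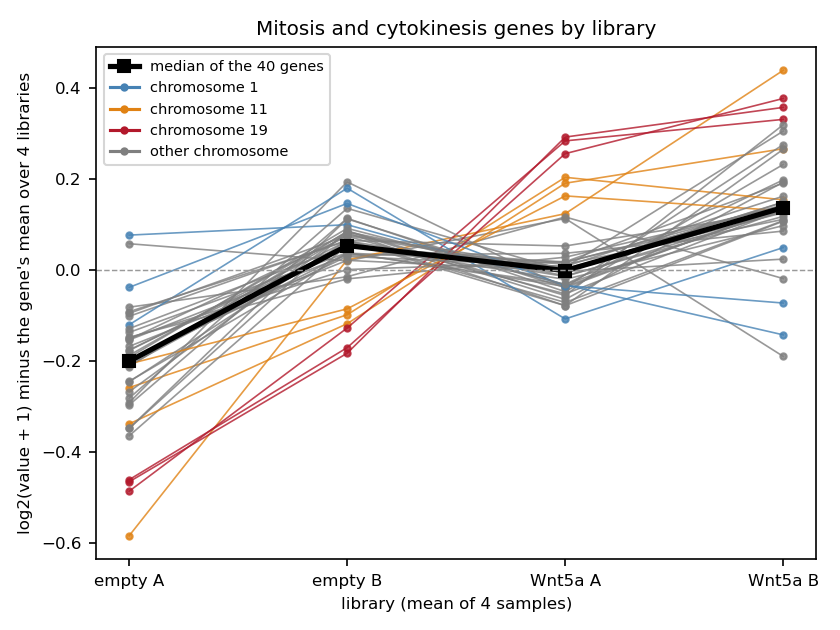
Log2 value of each mitosis gene minus its own mean over the 4 libraries (thin lines, coloured by chromosome; thick line, median of the 40 genes), for empty A, empty B, Wnt5a A and Wnt5a B. Most lines rise from A to B within each group (median 0.24 in empty and 0.14 in Wnt5a), and empty A is the lowest library for most genes.

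Genes that lacked the higher B value in the Wnt5a group were Mki67, Cenpf, Kif14, Cenpe, Top2a and Kif18b, most of which have long transcripts. In all tested genes, library B was lower than library A for long transcripts and higher for short ones in both groups: the median log2 difference B minus A was -0.14 in empty and -0.13 in Wnt5a for transcripts over 8 kb (769 genes), and 0.08 and 0.09 for those up to 2 kb (2324 genes). The 3 mitosis genes over 8 kb, Mki67, Cenpf and Kif14, had medians of 0.02 and -0.11. Across genes, the Spearman coefficient of the Wnt5a B minus A difference with transcript length was -0.35 over 12295 genes and -0.45 over the 40, and that of the empty B minus A difference was -0.27 and -0.16; the genes share libraries, and these are descriptions. The part of transcript length in the differences of Mki67, Cenpf and Kif14 was not tested.

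A wider list of 156 other mitosis genes, all tested, showed a smaller shift of the same sign. Positive differences were found for 120 (76.9%, against 50.7% of all genes), with a median of 0.07. In limma 2 passed, Rhoa and Cep55, against 2.06% of all genes. By unadjusted limma p under 0.05 there were 16 higher and 0 lower, against 8.63% and 7.45% of all genes. Cep55, the midbody protein that recruits the abscission machinery and the third gene of mitosis on chromosome 19 to pass, read 184 and 217 in empty and 316 and 344 in Wnt5a (samples 169 to 237, median 199.9, and 312 to 371, median 318). Its samples did not overlap, and it rose by 0.72 on the log2 scale (SE 0.11; limma with Benjamini-Hochberg adjustment, adjusted p = 0.030), or 0.38 (adjusted p = 0.23) with the chromosome median removed, and its adjusted p was 0.11 without the Wnt5a B library. By role, 15 of 16 other regulators of Cdk1 and the mitotic kinases were positive (median 0.13), 30 of 33 other kinetochore and checkpoint genes (0.14), 24 of 30 centrosome and spindle genes (0.09), 14 of 18 cohesin, condensin and separase genes (0.08), and 14 of 18 subunits of the anaphase-promoting complex and its partners (0.05). The 28 genes of the actomyosin ring and abscission were almost evenly divided (15 positive, median 0.0045), and of the 13 DREAM and MuvB genes that control the set 8 were positive (median 0.03). None of these lists apart from the ring and abscission list held a gene that passed. As in the 40 genes, those on chromosome 11 were all positive (12 of 12, median 0.30) and those on chromosome 1 mostly negative (8 of 9, median -0.16), while 105 of the 133 on chromosomes other than 1, 11 and 19 were positive (median 0.06).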

How the data were processed

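RNA was sequenced from 16 samples of preSC, 8 per group. The authors deposited 1 signal value per gene symbol and sample, a normalised read count; the submitters' processing notes name TopHat, Bowtie, HTSeq and DESeq2 without roles or versions, and the genome build and strand setting are not given in the sources used here, so overlapping and antisense genes cannot be told apart. All deposited values (100%) were whole multiples of 1 step per sample, within a tolerance of 1e-06 (relative to the step), so whole reads were recovered: 7526676 to 8859862 per sample. Intervals and floors cover counting error only. Samples whose reads gave an index of dispersion under 1.5 were averaged as 1 library.

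Genes with a mean value of at least 10 (12357) were compared with limma 3.58.1 in R 4.3.3 (lmFit, eBayes with trend) on log2(value + 1), which understates changes of low genes, with Benjamini-Hochberg adjustment over all of them and a threshold of 0.05. edgeR 4.0.16 (quasi-likelihood, TMM) and DESeq2 1.42.0 were run on the recovered reads summed per library. Other alternatives were a pseudocount of 0.1 or 10, testing every gene or only those with a mean of 50, centring each library on its median, quantile normalization, no trend, all 16 samples separately, the replicate number as a block, omission of each library, and removal of chromosome medians. The limma, edgeR and DESeq2 steps were tested on simulated data. Chromosomes came from the RefSeq table of GRCm38.p6 (17241 symbols matched, 379 through a synonym, 35 not), and lengths from GENCODE M21.

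The 40 genes, the other lists and the tests were chosen with earlier results of these data known. Values are given in full for genes past the threshold, the 4 largest differences in each direction, and Mki67, Top2a, Ccnb1, Cdk1, Cdc20, Plk1, Aurkb, Ect2, Racgap1, Kif23, Anln, Rhoa and Wnt5a. One marker gene is not reported here.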

Additional observations from a re-analysis of the deposited data

How the results depend on the processing

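With 2 libraries per group the number of the 40 genes that pass depends on the setting. Each of them had at least 995 reads in every library, and the effect of depth was not tested. It was 2 with a pseudocount of 10 and with quantile normalization, 1 with a pseudocount of 0.1, median centring or edgeR, 0 without the filter on low values, with a minimum of 50, without trend or with chromosome medians removed, and 6 with DESeq2. Over all genes the share that passed was 0.827% to 2.14% in these settings and 4.35% with DESeq2. With all 16 samples counted separately it was 21 (19 higher, 2 lower; 35.4% of all genes), but these are not independent samples. Leaving out 1 library gave 0 (without Wnt5a B) to 10 (without empty B) genes, against 1.12% and 8.89% of all genes; a lone library is then assumed to vary like the others. Of the 156 other genes, 1 passed without the filter, without trend or with chromosome medians removed, 54 with all samples separate, and 1 to 14 with 1 library left out. The median log2 difference of the 40 genes was 0.0118 to 0.2735 with 1 library left out, 0.1898 between the A and 0.0951 between the B libraries, and 0.128 to 0.1563 in every other setting. The filter, trend and replicate block settings cannot change a gene's difference, only its p, so they do not test the median.

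Library A of the groups and library B of the groups share sample numbers. Their deviations from the group mean correlated across genes (r = 0.44). With 2 libraries per group the A and B deviations mirror each other. Both pairs therefore give the same coefficient by construction, and it does not establish a pairing. With the replicate number as a block, 15 of the 40 and 24 of the 156 genes passed (17.0% of all genes), and with the replicate block over all 16 samples 36 and 93 (48.7% of all genes).

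The differences of Cenpf, Nuf2 and Kif14 turned positive with chromosome medians removed (0.001, 0.1177 and 0.069). With 1 library left out, 15 differences changed sign in at least 1 such fit: Cdk1 ranged from -0.0208 to 0.2764, Mki67 from -0.2288 to 0.0742, Bub1 from -0.0214 to 0.3887, Bub3 from -0.0533 to 0.1266, Ttk from -0.0068 to 0.234, Aurka from -0.034 to 0.1926, Plk1 from -0.0313 to 0.24, Ndc80 from -0.1439 to 0.3413, Nuf2 from -0.2089 to 0.0912, Spc25 from -0.0645 to 0.1212, Kif15 from -0.0617 to 0.3555, Kif20a from -0.0144 to 0.1673, Kif23 from -0.0405 to 0.2431, Anln from -0.0651 to 0.1057 and Ect2 from -0.0131 to 0.2705. Kif11 and Kif20b kept a positive difference in every setting run, although some settings could change only p. Their adjusted p exceeded the threshold in some settings, as the counts above show. The cause was not tested.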
